A study of Mus musculus with 18 samples.

Results

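The constitutive proteasome genes were taken from the deposited expression table by name: a symbol made of Psm, one of the letters a to g and a number, leaving out Psmb8, Psmb9 and Psmb10, which encode the catalytic subunits of the immunoproteasome. The rule gave 48 of the 21899 genes listed. It found 8 alpha and 8 beta subunits of the 20S core, 6 ATPases, 3 other base subunits and 8 lid subunits of the 19S particle, 3 chaperones of the base, 5 activators, 1 inhibitor, 4 assembly chaperones of the core, and Psmc3ip and Psme3ip1, which match by name only and encode binding partners, not subunits. The RNA came from liver, epididymal white adipose tissue (eWAT) and muscle of wild-type male C57BL/6 mice aged 18 weeks. The control (CON) mice received chow and tap water, and the mice on a high-salt diet (HSD) received food with 8% NaCl and saline of 0.9% for 12 weeks. Each tissue had 3 CON and 3 HSD libraries of bulk RNA, 18 in all, and p-values measure the spread between these libraries. Libraries with the same number in their name, such as CON16L, CON16W and CON16M (L for liver, W for eWAT and M for muscle), were read as tissues of 1 mouse. The question of the diet comparison was which genes of metabolic tissues respond to a long high-salt intake.

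The proteasome degrades proteins that carry a ubiquitin chain. Its 20S core is a barrel of stacked alpha and beta rings, in which Psmb6, Psmb5 and Psmb7 encode the beta 1, beta 5 and beta 2 subunits with caspase-like, chymotrypsin-like and trypsin-like activity. The 19S particle caps the core: its base holds a ring of ATPases that unfold the substrate, and its lid holds Psmd14, the enzyme that removes the ubiquitin chain. Other caps can replace the 19S particle, among them PA28 alpha and beta (Psme1 and Psme2, which interferon induces), PA28 gamma (Psme3, in the nucleus) and PA200 (Psme4). In muscle the ubiquitin and proteasome system carries out much of the protein breakdown of wasting.

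The values were FPKM, fragments scaled to gene length and library total, and whole fragments could be recovered for all 48 genes. Library totals were between 7628071 and 16637489 fragments, with the lowest in liver. The share of mitochondrially encoded genes was 15.4% to 60.8% of fragments in liver, highest in CON14L, against 3.52% to 5.11% in eWAT and 11.3% to 16.5% in muscle. In each tissue all 6 of its defining markers (hepatocyte, adipocyte or skeletal muscle) had a CON mean of at least 1 FPKM. The liver library CON16L held a summed 4120 FPKM of 6 skeletal muscle markers, against 1.89 to 5.30 in the other liver libraries. The eWAT library HS3W held 17933 FPKM of 11 epididymal epithelium markers, against 0.603 to 12.9 in the other eWAT libraries, and 6936 FPKM of adipocyte markers against 16026 to 22602. Male germ cell markers summed to 0.189 to 40.7 FPKM in CON eWAT and to 33.0 to 531 in HSD eWAT. Macrophage markers were lower in every HSD than in every CON library of each tissue, at 461 to 697 FPKM in CON eWAT and 195 to 419 in HSD eWAT, 26.3 to 46.6 and 14.8 to 24.9 in liver, and 43.7 to 75.9 and 32.3 to 35.9 in muscle. T and B cell markers summed to 0.334 to 9.81 FPKM. The part of these other cells in the values that follow was not tested. In bulk tissue, fewer cells of a type and less RNA per cell cannot be told apart.

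Nearly all of the 48 genes were found in every tissue. In the CON libraries 45 of them had a mean of at least 0.5 FPKM in liver, 46 in eWAT and 45 in muscle. Most exceptions are genes with a known restricted use. Psma8, the alpha subunit of the testis proteasome, did not exceed 0.657 FPKM in any library, and Psmb11, the beta subunit of the thymus proteasome, was listed at 0 in 16 of 18 libraries and had at most 4 fragments in the others. Psmc3ip, which acts in meiotic recombination, was at 0 to 0.189 FPKM in liver, 0.799 to 2.42 in eWAT and 0.289 to 1.23 in muscle. The assembly chaperone gene Psmg3 was the lowest of its group in each tissue, with CON means of 0.891 ± 0.502 FPKM in liver, 0.517 ± 0.145 in eWAT and 0.339 ± 0.196 in muscle (SD, n = 3).

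Subunits that enter the particle in equal numbers differed widely in FPKM, and the order was not the same in each tissue. FPKM divides by the length of all annotated exons of a gene, 1234 bases for Psma6 and 4595 for Psmb1. In CON16W, Psmb1 had more fragments than Psma6, 2035 against 1828. The part of these lengths in the rankings between genes was not tested. In eWAT and muscle the highest core subunit was Psma6, an alpha subunit, with CON means of 91.8 ± 1.49 and 84.4 ± 8.76 FPKM, whereas in liver it was Psmb6, with 58.9 ± 34.1 FPKM (SD, n = 3). Among the ATPases the highest CON mean was that of Psmc5 in liver, 43.3 FPKM, and in muscle, 78.9 FPKM, and that of Psmc1 in eWAT, 73.2 FPKM, while Psmc2 was lowest in each tissue. In the base, Psmd1, a large scaffold subunit, was lowest in each tissue, with 2.01 ± 0.887 FPKM in liver, 16.5 ± 0.836 in eWAT and 23.1 ± 0.76 in muscle. In the lid the lowest was Psmd13 in liver, 2.31 FPKM, and Psmd11 in eWAT, 12.3 FPKM, and in muscle, 15.2 FPKM, and the highest were Psmd12 in liver, 15.8 FPKM, Psmd8 in eWAT, 45.4 FPKM, and Psmd7 in muscle, 68.1 FPKM. The lid genes thus had a different leading member in each tissue, and these rankings rest on means of 3 libraries without a test between genes. The inhibitor gene Psmf1 was low throughout, with CON means of 2.04, 5.60 and 2.31 FPKM in liver, eWAT and muscle.

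**Figure D1:**
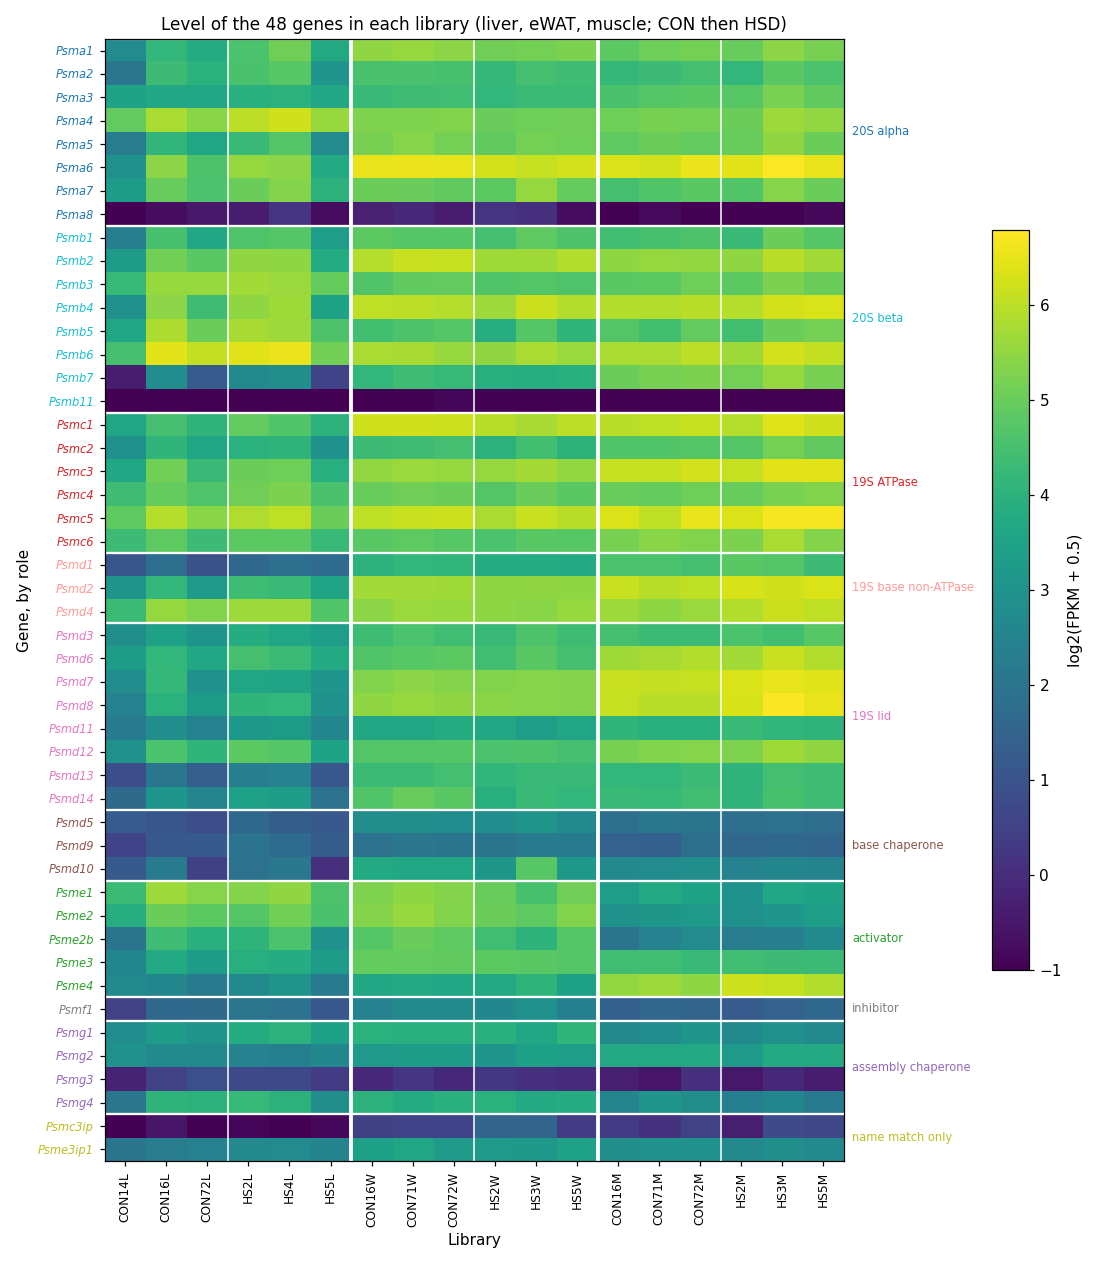
Level of each of the 48 genes (rows, grouped and coloured by role) in each of the 18 libraries (columns, by tissue and diet), as log2(FPKM + 0.5). Psma8, Psmb11, Psmg3 and Psmc3ip are the dark rows, and the liver libraries CON14L and HS5L are darker than the other 4 liver libraries over most rows.

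The spread between mice depended on the tissue. Over the members tested, those with a mean of at least 0.5 FPKM, the median coefficient of variation was 5.05% in CON eWAT and 7.47% in CON muscle, but 45.4% in CON liver. With HSD it was 11.2%, 14.8% and 33.2%. In liver, CON14L was the lowest of the 6 libraries for 39 of 45 members, and HS5L was the lowest of its group for 43. These are also the libraries with the highest mitochondrial shares, 60.8% and 44.4%, and the part of that share in the member levels was not tested.

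Upstream sequence was available from RefSeq (GRCm38.p6, windows of 250 bases before and 50 after the start of transcription) for 40 of the 48 genes. It was searched on both strands for TGACNNNGC, the core of the antioxidant response element, to which Nfe2l1 (Nrf1), the known activator of proteasome genes, and Nfe2l2 bind, and for CCAAT. The first was found in Psmb5, Psmb6, Psmc6, Psmd9, Psmd12 and Psme4, that is, in 6 of 44 member windows (13.6%), against 12.4% of all 32851 windows, and the second in 15 of 44 (34.1%) against 37.4%. The member shares were thus near those of promoters at large, and no member held both motifs. The windows of 2 catalytic subunits and of Psme4, the activator that differed most between muscle and liver, are shown from 100 bases before to 5 bases after the start, with the motif in capitals.
Psmb5, chr14:54617991-54618095, minus strand: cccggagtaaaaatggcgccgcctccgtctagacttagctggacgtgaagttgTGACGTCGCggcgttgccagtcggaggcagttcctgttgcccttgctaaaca
Psmb6, chr11:70525257-70525361, plus strand: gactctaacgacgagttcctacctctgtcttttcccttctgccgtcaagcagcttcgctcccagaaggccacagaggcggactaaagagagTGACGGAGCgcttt
Psme4, chr11:30771675-30771779, plus strand: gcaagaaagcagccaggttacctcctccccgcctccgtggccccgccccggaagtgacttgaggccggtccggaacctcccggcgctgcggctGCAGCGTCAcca
The match lies 47 to 39 bases before the start in Psmb5 and 9 to 1 bases before it in Psmb6, both on the strand of the gene, while in Psme4 it spans the start on the other strand. A match describes these letters only and is not a measured binding site. Some gene models share bases with a neighbour, among them Psmb7 with Nek6 on the other strand and Psmb5, Psmd1, Psmg3 and Psme2b with genes on the same strand. The library kit was stranded, but whether the counting used the strand was not stated in the sources used here.

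Between tissues, liver held the lowest levels of most members in CON mice. In eWAT against liver, 34 of 46 members tested passed and all 34 were higher in eWAT, as were 74.4% of all 12637 genes tested, whereas 0 members and 9.37% of all genes were lower. In muscle against liver, 30 members were higher and 2 lower, against 51% and 21.4% of all genes. In eWAT against muscle, 8 were higher and 4 lower, against 63.7% and 11.6% of all genes. A gene passed here when its Benjamini-Hochberg adjusted p was under 0.05 over all genes tested, by limma on log2(FPKM + 0.5), with the 9 CON libraries in 1 fit. This fit ignores that CON16 and CON72 were read as giving all 3 tissues and CON71 as giving eWAT and muscle. With the mouse as a random block the counts were 34 higher and 0 lower, 30 and 3, and 9 and 4. Leaving out CON14L gave 33 higher and 4 lower in eWAT than in liver (Psmb3, Psmb5, Psmb6 and Psmg3) and 29 and 8 in muscle against liver, where Psma4, Psmb3, Psmb5, Psme2b, Psmg3 and Psmg4 joined Psme1 and Psme2 as lower. Of all 12708 genes tested then, 9636 were higher and 1347 lower in eWAT than in liver, and 6585 and 2916 in muscle. With HSD libraries the member counts were 22 and 3, and 24 and 6. Of all 13255 genes tested then, the counts were 9410 and 1090, and 5128 and 2697. By voom on the recovered fragments, 33, 32 and 14 members passed in either direction. In the fit of the 9 CON libraries, the member share higher in eWAT than in liver was near that of all genes, and the member share higher in eWAT than in muscle was below it.

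These counts depend on how libraries are scaled, since the median of all genes was itself 1.36 (log2) higher in eWAT and 0.52 higher in muscle than in liver, and 0.93 higher in eWAT than in muscle. The medians of the members were 1.17, 1.09 and 0.14. With median-ratio scaling, which sets the median of genes found in all libraries equal, the all-gene medians were -0.03, 0.08 and 0.07 and the member medians -0.39, 0.45 and -0.89. The members passing then, of 45 tested, were 6 higher and 17 lower in eWAT than in liver, 20 higher and 8 lower in muscle than in liver, and 3 higher and 24 lower in eWAT than in muscle. Among all genes these counts were 3868 and 3877, 4612 and 4073, and 3875 and 3589. With mitochondrially encoded genes left out of the total, the member counts were 20 and 6, 22 and 8, and 7 and 11. Those of all genes were 6901 and 1786, 4529 and 3632, and 6941 and 1650. Of the 46 members, 7 passed in opposite directions under different scalings for eWAT against liver, among them Psmc2, Psmc5 and Psme2. The statements on single genes that follow therefore name those that passed in one direction under all 3 scalings, unless said otherwise.

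**Figure D2:**
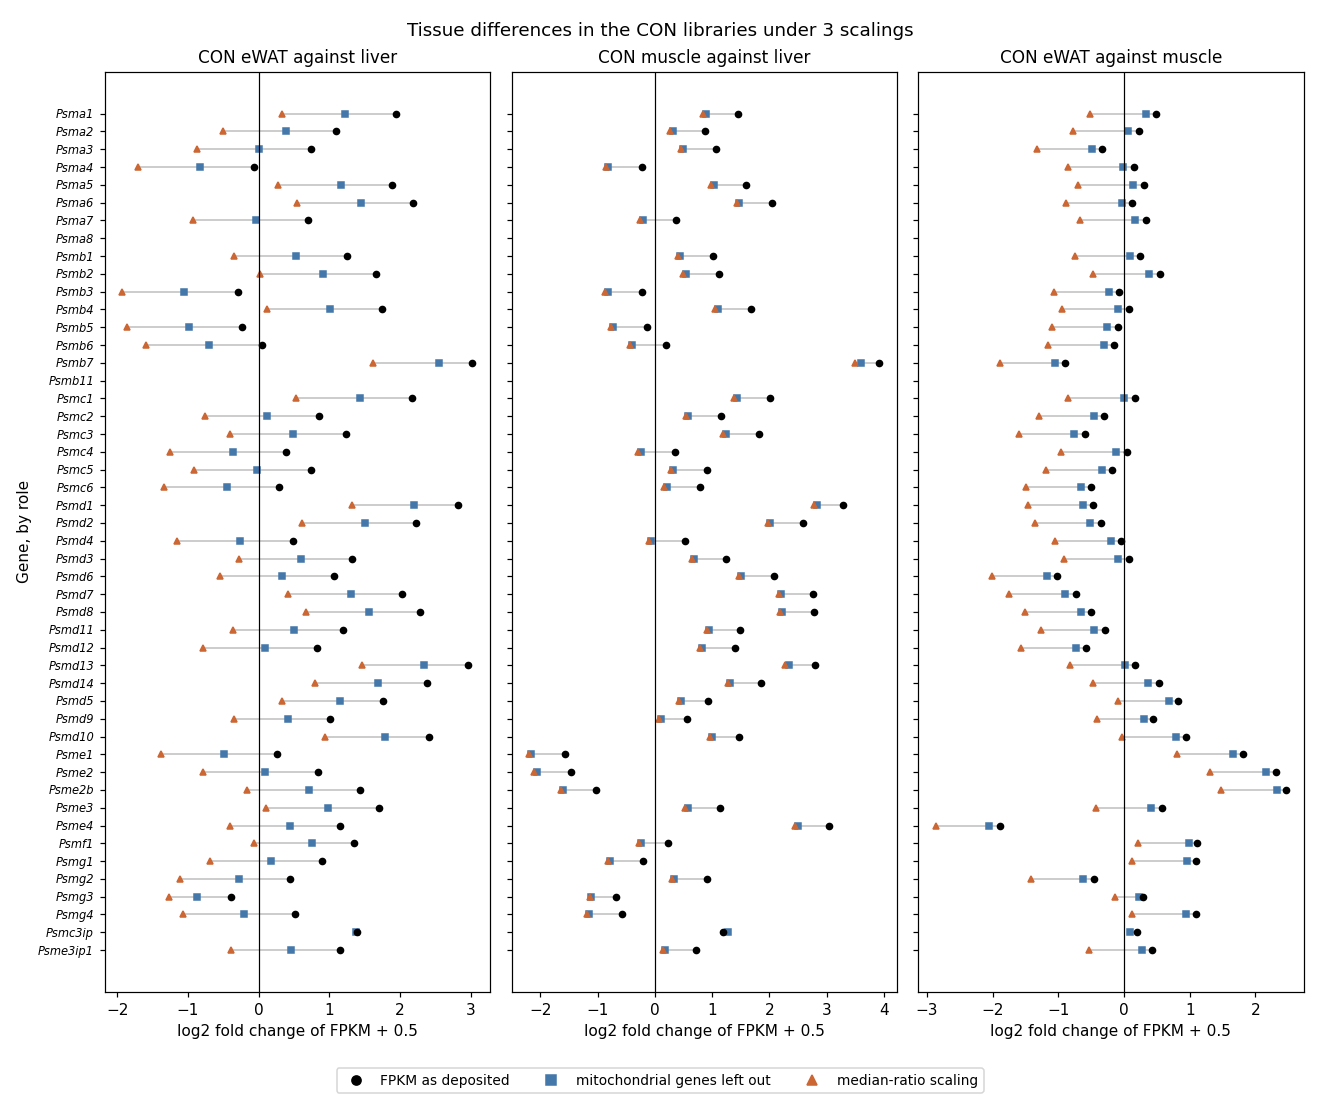
Log2 fold change of each member (rows, by role) in CON mice for eWAT against liver, muscle against liver and eWAT against muscle, with FPKM as deposited (circles), mitochondrial genes left out (squares) and median-ratio scaling (triangles). Scaling shifts nearly all genes together, and Psmb7, Psmd1 and Psme4 stay far to the right in muscle against liver, with Psme1 and Psme2 to the left of 0.

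Of the catalytic subunits, Psmb7 differed between tissues far more than Psmb5 and Psmb6. Psmb7 had 0.268, 6.61 and 1.89 FPKM in CON liver, 17.4, 20.3 and 18.2 in CON eWAT, and 32.1, 35.9 and 37.2 in CON muscle. The 3 tissues did not overlap, and the lowest liver value rested on 7 fragments. Psmb7 was higher in muscle than in liver by 3.92 ± 0.63 (log2, SE; adjusted p = 0.00044), and under each scaling. In eWAT against liver the difference was 3.02 ± 0.63 (adjusted p = 0.0016), which with median-ratio scaling was 1.61 and did not pass (adjusted p = 0.0635). Psmb6 had 21.8, 88.8 and 66.2 FPKM in liver, against 55.4, 54.0 and 47.3 in eWAT and, for muscle, 55.3, 54.5 and 64.1. The liver values enclosed those of both other tissues, and the differences from liver were 0.04 ± 0.45 in eWAT (adjusted p = 0.93) and 0.19 ± 0.45 in muscle (adjusted p = 0.71), with a sign that turns under either of the other scalings. Psmb5 behaved likewise, with 11.4 to 56.8 FPKM in liver, 20.8 to 25.8 in eWAT and 20.9 to 29.7 in muscle, and differences of -0.24 ± 0.48 and -0.14 ± 0.48 from liver (adjusted p = 0.65 and 0.81). In eWAT, Psmb5 and Psmb6 were lower than in liver with either of the other scalings (adjusted p of 0.0056 to 0.0427).

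Among the 14 core subunits, 7 passed as higher in muscle than in liver as deposited (51% of all genes did) and 8 as higher in eWAT than in liver (74.4% of all genes). Psma1, Psma5 and Psma6 were higher in muscle than in liver under all 3 scalings, with differences of 1.46, 1.58 and 2.05 (log2), while Psma4, with -0.22 ± 0.23, and Psmb3, with -0.23 ± 0.35, did not pass as deposited. Psma4 and Psmb3 had a higher CON mean in liver than in the other tissues, and Psma4 was the highest core subunit in the liver libraries CON14L and HS5L.

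Among 19S subunits, all 8 lid genes and 2 of 3 base genes passed as higher in both eWAT and muscle than in liver with FPKM as deposited. Of the 6 ATPases, 4 did in eWAT and 5 in muscle. Of all genes, 74.4% passed as higher in eWAT than in liver and 51% in muscle than in liver. Under all 3 scalings, Psmc1, Psmd1, Psmd2, Psmd13 and Psmd14 were higher in eWAT than in liver. In muscle against liver, Psmc1, Psmc3, Psmd1, Psmd2 and 8 of 8 lid genes were. Psmd1 had 1.59, 3.03 and 1.41 FPKM in CON liver, against 15.6, 17.1 and 16.8 in eWAT and, for muscle, 23.5, 23.5 and 22.2. The tissues did not overlap, and the difference from liver was 2.81 ± 0.22 in eWAT (adjusted p = 2.6e-06) and 3.28 ± 0.22 in muscle (adjusted p = 2.2e-06). Psmd13, a lid subunit, had 1.28, 3.62 and 2.04 FPKM in CON liver against 19.4 to 21.7 in eWAT and 17.2 to 19.1 in muscle, that is, 2.96 ± 0.27 and 2.79 ± 0.27 higher. By contrast, the ubiquitin receptor gene Psmd4 did not pass in any of these comparisons as deposited, with 19.4, 46.1 and 39.0 FPKM in liver, 42.9 to 48.1 in eWAT and 43.9 to 49.6 in muscle. Between eWAT and muscle, the lid gene Psmd6 was lower in eWAT by 1.01 on the log2 scale (SE 0.22, adjusted p = 0.0027) and the ATPase gene Psmc6 by 0.50 (SE 0.19, adjusted p = 0.042), both under all 3 scalings.

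The activators divided by tissue. Psme4 (PA200) had 6.04, 5.48 and 4.20 FPKM in CON liver, against 12.1, 12.4 and 11.9 in eWAT and, for muscle, 45.7, 49.5 and 43.6. No 2 tissues overlapped, and Psme4 was higher in muscle than in liver by 3.04 ± 0.16 (adjusted p = 6.4e-07) and lower in eWAT than in muscle by 1.89 (SE 0.16, adjusted p = 8.6e-06), both under all 3 scalings. For eWAT against liver it was 1.15 ± 0.16 as deposited and -0.41 with median-ratio scaling. Psme1 (PA28 alpha) went the other way, with 19.3, 49.6 and 41.1 FPKM in liver, against 38.5, 43.4 and 40.4 in eWAT and, for muscle, 9.77, 13.1 and 11. Its muscle values lay below all values of the other tissues, by 1.56 below liver (SE 0.32, adjusted p = 0.0018) and 1.81 below eWAT (adjusted p = 0.00068). Psme2 (PA28 beta) had 14, 32.2 and 27.8 FPKM in liver, against 40.0, 47.2 and 39.3 in eWAT and, for muscle, 7.49, 8.23 and 8.51. It was 1.47 lower in muscle than in liver on the log2 scale (SE 0.29, adjusted p = 0.0013) and 2.31 ± 0.29 higher in eWAT than in muscle (adjusted p = 7.3e-05). Psme2b, a near copy of Psme2 with which it may share fragments, also passed in eWAT against muscle, at 2.46 ± 0.53. Psme3 (PA28 gamma) had its highest CON mean in eWAT with FPKM as deposited, with means of 9.31, 29.8 and 19.9 FPKM in liver, eWAT and muscle. Unlike the genes named above, Psme3 did not pass under all 3 scalings as higher in eWAT than in liver or in muscle. The macrophage markers stood at 461 to 697 FPKM in CON eWAT and 26.3 to 75.9 in CON liver and muscle, and their part in the eWAT levels of Psme1 and Psme2 was not tested.

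The chaperones and the inhibitor were less uniform. In eWAT against muscle, the base chaperone genes Psmd5 (0.83 ± 0.14) and Psmd10 (0.94 ± 0.36, the oncoprotein gankyrin), the inhibitor gene Psmf1 (1.11 ± 0.28), the core chaperone gene Psmg1 (1.10 ± 0.17) and Psme3ip1 (0.43 ± 0.15) passed as higher in eWAT as deposited, and Psmg2 passed as lower (-0.46 ± 0.14). With median-ratio scaling the values of Psmd5 and Psmd10 were -0.09 and -0.03, and Psme3ip1 passed in the other direction (-0.53, adjusted p = 0.0166). Psmd10 was also higher in both eWAT and muscle than in liver under all 3 scalings (2.40 ± 0.36 and 1.47 ± 0.36). The count of 12 members for eWAT against muscle rested on a spread that the liver libraries raise. It was 24 without CON14L and 23 without CON16L, against 82.2% and 81.2% of all genes in either direction. When only eWAT and muscle libraries were fitted it was 32 of 45 (18 higher and 14 lower, an alternative chosen after seeing the data), against 88% of all genes. With HSD libraries in place of CON libraries it was 21, with 9 higher and 12 lower, against 72.7% of all genes in either direction.

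**Figure D3:**
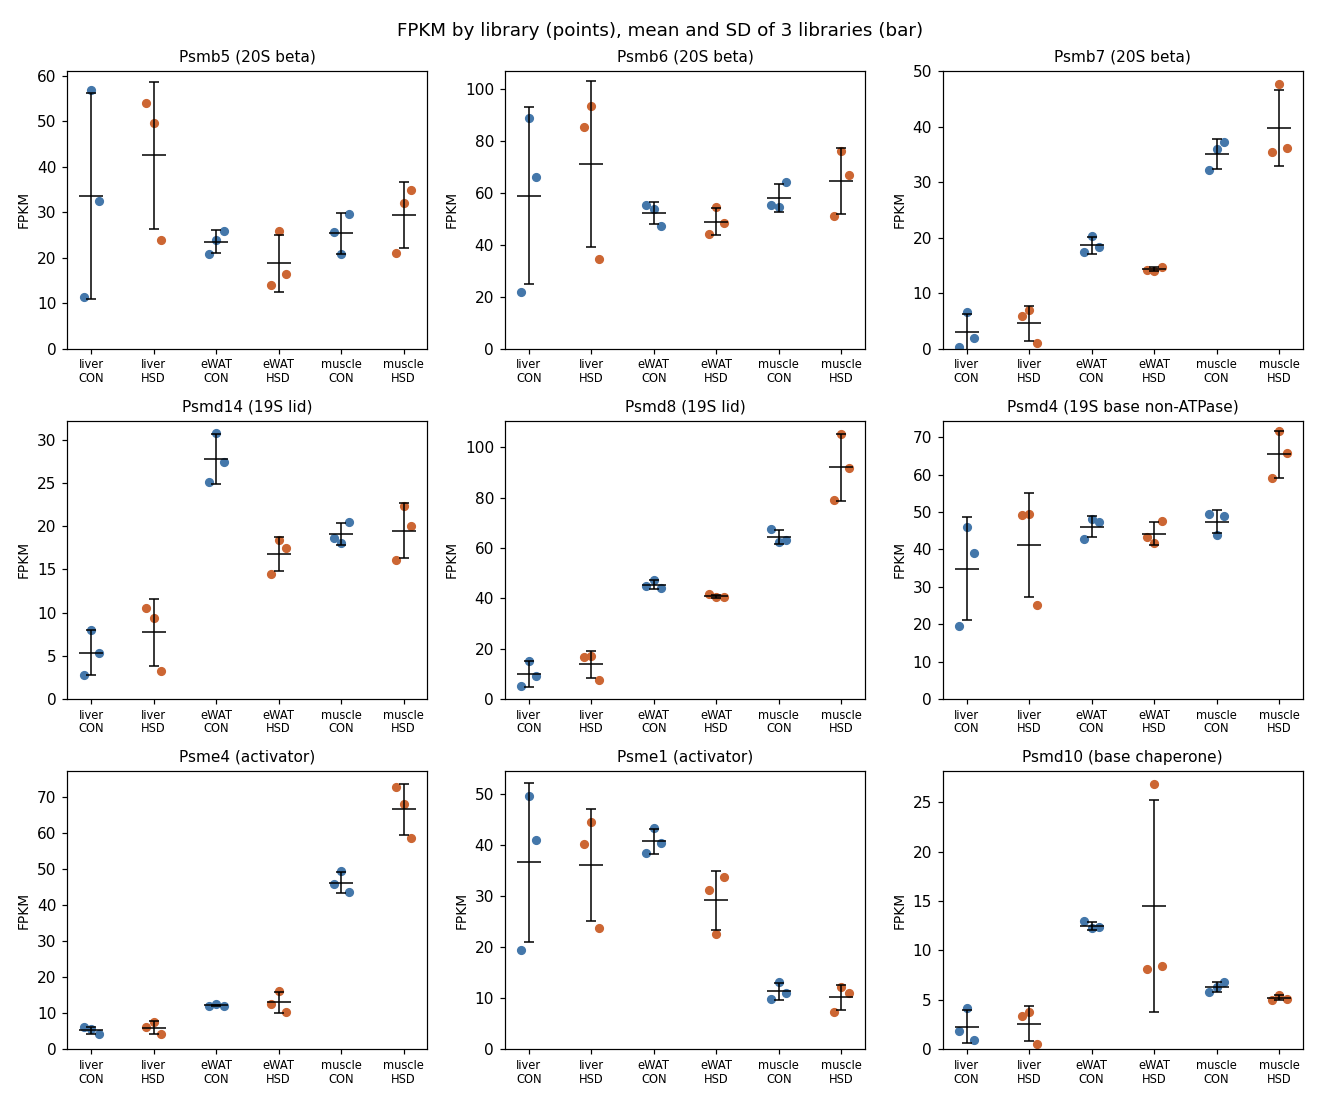
FPKM of 9 members by tissue and diet, with a point for each library (CON blue, HSD orange) and the mean and SD of 3 libraries as bars, which for Psmb7 in CON liver would reach below 0 and are drawn from 0. Psmb7 and Psme4 have their highest values in muscle, Psme1 its lowest there, Psmd14 is lower in HSD than in CON eWAT, and Psmd10 has 1 high eWAT value, 26.8 FPKM, in HS3W.

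Ratios of members within a library do not depend on how libraries are scaled. The ratio of Psmb7 to Psmb6 was 0.0123 to 0.0745 in the 6 liver libraries, 0.257 to 0.385 in the 6 eWAT libraries and 0.541 to 0.694 in the 6 muscle libraries, with no overlap between tissues in either diet group. In liver it was lowest in the 3 libraries with mitochondrial shares of 37.8% and more (0.0123, 0.0285 and 0.0288) and 0.0694 to 0.0745 in the other 3. The mean of the 8 lid genes relative to the mean of 14 core subunits (Psma1 to Psma7 and Psmb1 to Psmb7) was 0.325 to 0.527 in liver, 0.664 to 0.719 in eWAT and 0.939 to 1.12 in muscle, again without overlap. For the ATPases this ratio was 0.825 to 1.59 in liver, which enclosed the 1.10 to 1.17 of eWAT and the 1.31 to 1.43 of muscle. The mean of Psme1 and Psme2 stood at 0.866 to 1.62 times the core mean in liver, 0.671 to 1.09 in eWAT and 0.197 to 0.290 in muscle, and Psme4 at 0.155 to 0.586, 0.293 to 0.427 and 1.08 to 2.01. In muscle, then, Psme4 exceeded the mean of Psme1 and Psme2 by 4.46 to 10.2 times, while in liver and eWAT it was 0.122 to 0.636 of it. The sum of the immunoproteasome genes Psmb8, Psmb9 and Psmb10 relative to that of Psmb5, Psmb6 and Psmb7 was 0.125 to 0.539 in liver, 0.182 to 0.497 in eWAT and 0.0377 to 0.0797 in muscle.

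**Figure D4:**
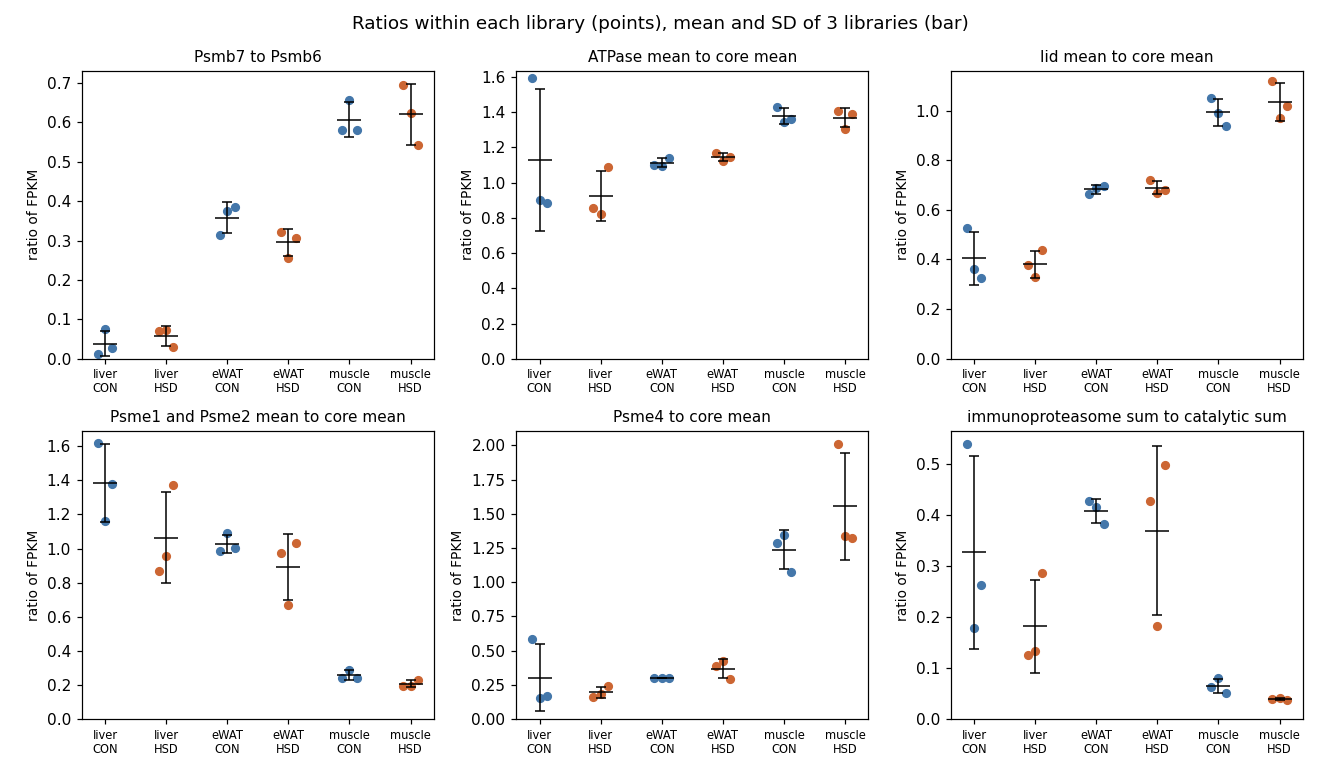
Ratios of FPKM within each library by tissue and diet, with a point for each library (CON blue, HSD orange) and the mean and SD of 3 libraries as bars. Psmb7 to Psmb6 and lid to core rise in steps from liver over eWAT to muscle, and the ratio of Psme1 and Psme2 to core, at 0.197 to 0.290, is lowest in muscle.

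The range of levels within the core was widest in liver. The highest of the 14 core subunits exceeded the lowest by 13.4 to 112 times in liver, by 4.59 to 5.60 times in eWAT and by 3.90 to 4.91 times in muscle. By FPKM, Psmb7 was the lowest core subunit in 6 of 6 liver libraries, and Psma2 in 6 of 6 muscle libraries. Exon lengths enter these ratios and ranks, with 3421 bases for Psmb7 and 3673 for Psma2 against 1234 for Psma6. Their part was not tested.

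With HSD, no member passed in liver. By limma, 0 of 45 members and 0% of all 10317 genes did, and limma's voom on the recovered fragments also called 0 members. The log2 fold changes of 44 of 45 members were above 0, with a median of 0.45 against 0.13 for all genes, of which 62.7% were above 0. Without CON14L the member median was 0.04, with 27 of 45 above 0, against an all-gene median of 0.09, and with mitochondrially encoded genes left out of the total it was 0.11 against -0.20. It was larger, 0.72, without CON16L, 0.73 without HS5L and 0.96 with the study's libraries alone (CON14L, CON72L, HS2L and HS4L), where 27 members were higher at an unadjusted p under 0.05, as were 24.2% of all genes, and 0 passed the adjusted test. CON14L is the library with 60.8% mitochondrial fragments, and the part of that share in the values was not tested. At an unadjusted p under 0.05, 2 members were higher, against 3.78% of all genes, and 0 were lower, against 1.96%.

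The 2 members were the base chaperone gene Psmd9 and the core chaperone gene Psmg1. Psmd9 had 0.995, 1.73 and 1.82 FPKM in CON and 3.44, 2.83 and 1.95 in HSD liver, a difference of 0.68 ± 0.28 (adjusted p = 0.76). Psmg1 had 6.54, 9.15 and 7.73 FPKM in CON and 13.2, 15.6 and 10.1 in HSD, a difference of 0.69 ± 0.28 (adjusted p = 0.76). Both were higher in each HSD than in each CON library, as was Psme3ip1, so 3 of 45 members lay above, against 8.62% of all genes, and 1, Psmg2, lay below, against 3.47%. The largest estimates were those of Psma1 (0.90 ± 0.49), Psmb7 (0.81 ± 0.89) and Psmb1 (0.73 ± 0.63), and the lowest those of Psmg2 (-0.32 ± 0.22), Psme1 (0.03 ± 0.46) and Psmd10 (0.08 ± 0.63), with Psmd7 next (0.08 ± 0.40). For Psmb5 and Psmb6 they were 0.52 ± 0.63 and 0.36 ± 0.64. In 11 of the 14 core subunits tested, the standard error in liver exceeded the difference.

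In eWAT the members leaned lower with HSD, but again none passed. By limma, 0 of 46 members and 0% of all 13740 genes passed, and 0 members by voom. The log2 fold changes of 37 of 46 members were below 0, with a median of -0.15 against 0.08 for all genes, of which 40.9% were below 0. At an unadjusted p under 0.05, 10 members were lower, against 7.55% of all genes, and 0 were higher, against 9.18%. In 16 members all HSD libraries lay below all CON libraries, against 12.4% of all genes, and in 0 they lay above, against 16.2%. The 16 were the core genes Psma1, Psma2, Psma4, Psma6, Psmb2 and Psmb7, the ATPase gene Psmc1, the base genes Psmd1 and Psmd2, the lid genes Psmd8, Psmd12, Psmd13 and Psmd14, and the activators Psme1, Psme2 and Psme3. The mean of the 14 core subunits was 39.8, 41.6 and 39.6 FPKM in CON and 32.4, 37.9 and 35.2 in HSD eWAT.

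The lowest value in eWAT was that of Psmd14, the deubiquitinating subunit of the lid. It had 25.1, 30.8 and 27.5 FPKM in CON and 14.5, 18.4 and 17.5 in HSD libraries, that is, 27.8 ± 2.87 against 16.8 ± 2.01 (SD, n = 3), from 559 to 1317 fragments a library. The groups did not overlap, and the difference was -0.71 ± 0.13 (unadjusted p = 0.0016, adjusted p = 0.124). Psme1 had 38.5, 43.4 and 40.4 FPKM in CON and 31.2, 22.6 and 33.7 in HSD, a difference of -0.49 ± 0.17 (adjusted p = 0.24). Psme2b and Psme2 had differences of -0.48 ± 0.20 and -0.35 ± 0.15. The macrophage markers were also lower in each HSD than in each CON eWAT library, and their part in these activator values was not tested. Of the catalytic subunits, Psmb7 had 17.4, 20.3 and 18.2 FPKM in CON and 14.2, 14 and 14.8 in HSD (-0.36 ± 0.09, adjusted p = 0.17). Psmb5 differed by -0.36 ± 0.24 and Psmb6 by -0.09 ± 0.12. The highest estimates were those of Psmc3ip (0.61 ± 0.35), Psmd9 (0.17 ± 0.12) and Psma7 (0.13 ± 0.21). Psmc3ip rested on few fragments, 26, 27 and 30 in CON and 59, 54 and 19 in HS2W, HS3W and HS5W. Male germ cell markers summed to 531, 232 and 33.0 FPKM in these HSD libraries, and their part in Psmc3ip was not tested.

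The library HS3W, with its epididymal transcripts, departed from the other HSD libraries in several members. Psmd10 had 8.13, 26.8 and 8.43 FPKM in HSD eWAT against 12.2 to 12.9 in CON, and Psma7 had 27.7, 46.8 and 30.4 against 29.3 to 32.2, with the middle value in both from HS3W. Psmb5 had 13.9, 26.0 and 16.5 FPKM in HSD against 20.8 to 25.8 in CON. Without HS3W, 4 of 46 members passed, all lower, against 7.43% of all genes in either direction: Psmd14 (-0.78 ± 0.12, adjusted p = 0.0284), Psmb5 (-0.61 ± 0.12, adjusted p = 0.0418), the ATPase gene Psmc2 (-0.37 ± 0.07, adjusted p = 0.0417) and Psmd10 (-0.57 ± 0.07, adjusted p = 0.0227). This fit compared 3 CON with 2 HSD libraries.

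In muscle the members leaned higher with HSD by their fold changes, but not in each HSD library. The mean of the 14 core subunits was 35.5, 36.8 and 40.5 FPKM in CON and 36.3, 51.1 and 44.3 in HSD muscle, and the groups overlapped. HS2M was the lowest HSD library for 35 of 45 members, and HS3M was the highest of the 6 libraries for 25. By limma, 0 of 45 members passed, against 0.895% of all 10834 genes, and 0 by voom. The log2 fold changes of 36 of 45 members were above 0, with a median of 0.17 against -0.06 for all genes, of which 39.2% were above 0. All 14 core genes tested and all 17 of the 19S ATPase, base and lid genes had values above 0, from 0.02 for Psmd14 to 0.50 for Psmd8, while the core chaperones Psmg1, Psmg2 and Psmg4 and the base chaperones Psmd5 and Psmd10 had values below 0. At an unadjusted p under 0.05, 4 members were higher, against 4.29% of all genes, and 2 were lower, against 12%. All HSD libraries lay above all CON libraries in 5 members, Psmd2, Psmd4, Psmd7, Psmd8 and Psme4, against 6.72% of all genes, and below in 1, Psmd10, against 15.6%.

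The highest estimate in muscle was that of Psme4, the activator with the highest CON mean in this tissue. It had 45.7, 49.5 and 43.6 FPKM in CON and 72.8, 68.2 and 58.7 in HSD muscle, that is, 46.3 ± 3 against 66.6 ± 7.17 (SD, n = 3), from 4084 to 8122 fragments a library. The groups did not overlap, and the difference was 0.52 ± 0.12 (adjusted p = 0.0936). With the replicate number as a block it was 0.52 ± 0.10 and passed (adjusted p = 0.0367), as 1 of 45 members, with 2.64% of all genes. That block joins CON and HSD libraries of different mice, for which no pairing was stated. Psmd8, a lid subunit, had 67.7, 62.2 and 63.1 FPKM in CON and 79.0, 105 and 91.6 in HSD, a difference of 0.50 ± 0.13 (adjusted p = 0.11). Without HS2M it was 0.61 ± 0.11 and passed (adjusted p = 0.0411), as the only member, with 1.89% of all genes. Psmd4, the ubiquitin receptor of the base, had 49.6, 43.9 and 48.9 FPKM in CON and 59.0, 71.6 and 65.7 in HSD, a difference of 0.46 ± 0.12 (adjusted p = 0.11). The lid gene Psmd7 stood at 68.1 ± 1.44 in CON and 85.0 ± 4.12 FPKM in HSD (0.32 ± 0.11, adjusted p = 0.19).

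The lowest estimates in muscle were those of Psmg4 (-0.43 ± 0.16), Psmd10 (-0.26 ± 0.11) and Psme3ip1 (-0.18 ± 0.11). Psmg4 had means of 6.61 ± 1.24 FPKM in CON and 4.74 ± 0.612 in HSD, from 29 to 51 fragments a library. Psmd10 had 5.80, 6.32 and 6.76 FPKM in CON and 4.96, 5.45 and 5.10 in HSD. The catalytic genes Psmb5, Psmb6 and Psmb7 had values of 0.19 ± 0.20, 0.14 ± 0.16 and 0.17 ± 0.14, and Psme1 and Psme2 of -0.17 ± 0.19 and 0.00 ± 0.14. Psme1 and Psme2 in mean relative to the core were at 0.241 to 0.290 in CON and 0.197 to 0.231 in HSD muscle, without overlap. In liver and eWAT this ratio overlapped between the diet groups. Several ratios were examined and none was tested. Non-overlap of 3 against 3 libraries has a two-sided p of 0.1 by exact permutation.

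**Figure D5:**
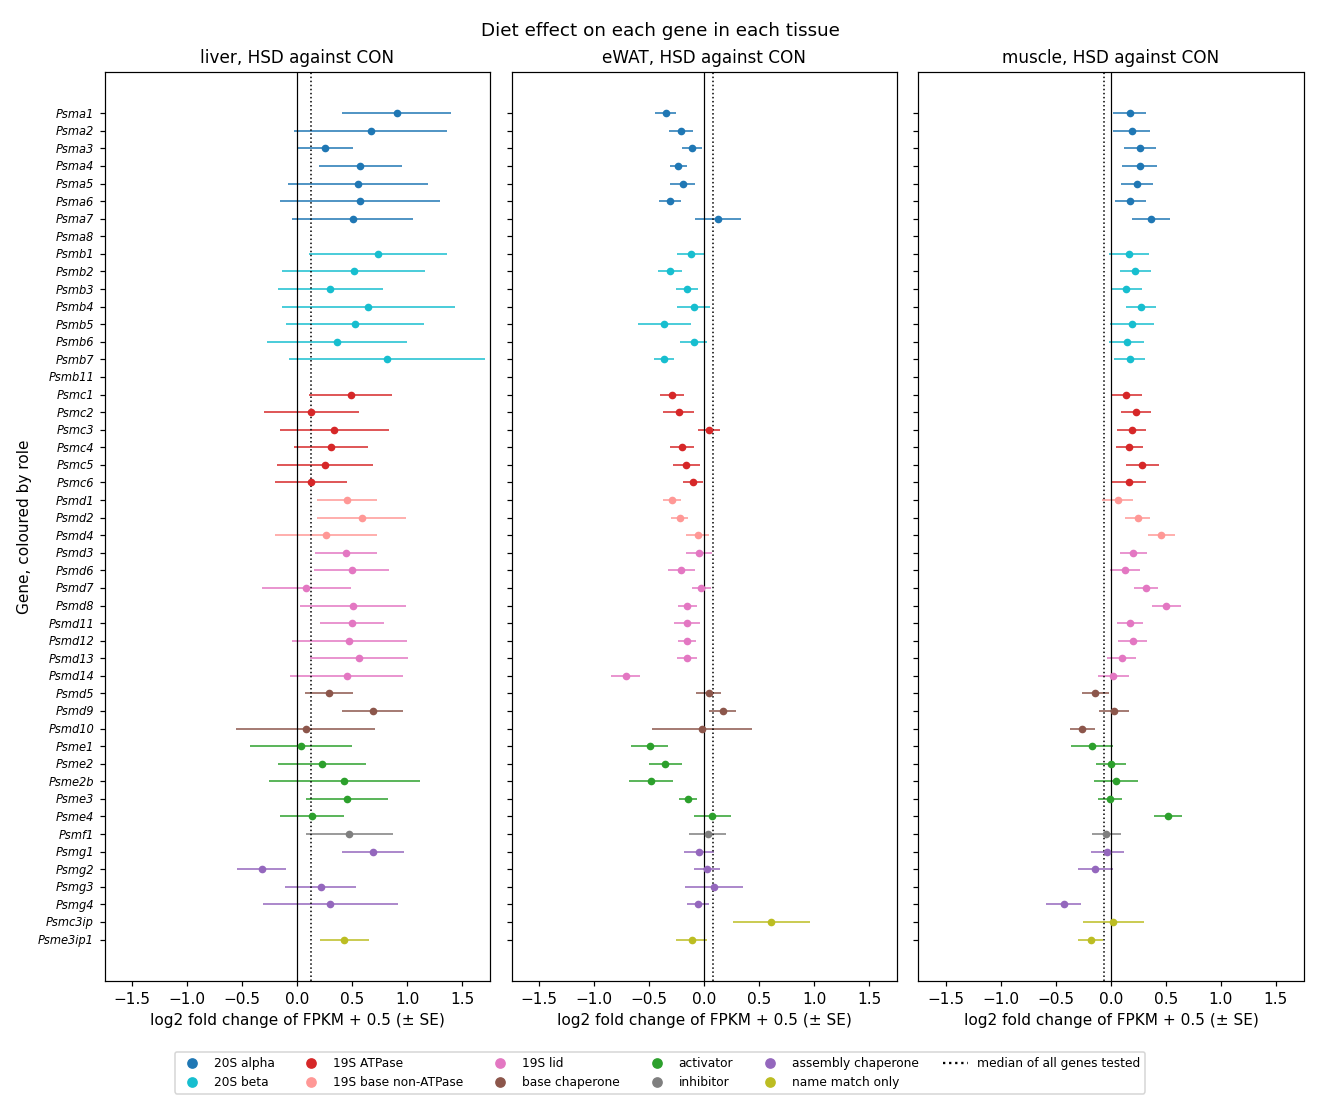
Log2 fold change of HSD against CON with its SE for each member tested (rows, coloured by role) in liver, eWAT and muscle, with the median of all genes tested as a dotted line. Liver values lie mostly to the right with wide errors, eWAT values mostly to the left with Psmd14 at -0.71, and muscle values of core and 19S genes to the right with Psme4 at 0.52. No point passes the adjusted test.

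Whether the diet effect differed between tissues was tested as an interaction over all 18 libraries. This fit had no block for the mouse, though several mice were read as giving more than 1 tissue. The comparisons share libraries with those above and are not independent of them. For eWAT minus liver, 0 of 46 members passed, against 0.788% of all 13067 genes. For muscle minus liver, 0 passed, against 0.0612%, and for eWAT minus muscle, 0 passed, against 0%. All groups in this fit shared an estimate of the spread for each gene, which the liver libraries raise. The median coefficient of variation of members was 45.4% in CON liver, against 5.05% in CON eWAT and 7.47% in CON muscle. The 0 for eWAT minus muscle therefore does not show that the diet effects were equal. At an unadjusted p under 0.05 the counts of members were 10, 3 and 0, against 13.7%, 7.95% and 8% of all genes, and by voom 0 members passed in each. The lowest differences for eWAT minus liver were those of Psma1 (-1.25 ± 0.47, adjusted p = 0.26), Psmb7 (-1.18 ± 0.88) and Psmd14 (-1.16 ± 0.51), and for eWAT minus muscle those of Psmd14 (-0.73 ± 0.51), Psmd8 (-0.66 ± 0.47) and Psmb5 (-0.55 ± 0.64). For muscle minus liver the highest was that of Psme4 (0.38 ± 0.30). These counts depend on the libraries used. Over the 15 libraries that the study itself used, which leave out CON16L, HS5L and HS5W, 29 of 46 members passed as lower for eWAT minus liver, with 23.8% of all genes passing in either direction, and 13 for muscle minus liver, with 13.7%. Without CON16L alone 1 member passed (Psmd1, -1.01 ± 0.20), and without HS5L alone 2 did (Psmd14, -1.66 ± 0.39, and Psma1, -1.62 ± 0.42). The remaining liver libraries of the 15 were CON14L, CON72L, HS2L and HS4L, with mitochondrial shares of 60.8% and 37.8% in CON and 16.3% and 15.4% in HSD.

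Other genes of the pathway were read from the same fits, with FPKM as deposited only. The other scalings were not run for these genes. Of 12 partners of the proteasome, 5 regulators of its genes, 8 shuttle and segregase genes, 6 genes of ubiquitin supply and 3 immunoproteasome genes, none passed with HSD in any tissue. In muscle the partners had a median of 0.20, near that of the members, with Zfand5, a known activator of the 26S proteasome, at 0.46 ± 0.11 (adjusted p = 0.0946) and Adrm1, a ubiquitin receptor, at 0.38 ± 0.12. Ubb, a polyubiquitin gene, was at 0.41 ± 0.13 there. In eWAT, Zfand2a had the lowest estimate of the partners, -0.67 ± 0.10 (adjusted p = 0.114). The immunoproteasome genes (in muscle 2 of 3 tested) had medians of -0.50 in liver, -0.56 in eWAT and -0.49 in muscle, below 0 in each, with Psmb9 at -0.85 ± 0.25 in liver (adjusted p = 0.76). Between tissues, Nfe2l1 was higher than in liver by 2.71 ± 0.33 in eWAT and 3 ± 0.33 in muscle. Of the 4 regulators tested, 2 passed as higher and 1 as lower than in liver, in eWAT and also in muscle. Nfe2l2 had 49.9, 22.1 and 36.7 FPKM in CON liver, 30.7, 28.9 and 28.1 in CON eWAT, and 11.3, 13.3 and 11.3 in CON muscle. All 8 shuttle and segregase genes passed as higher than in liver in both tissues with FPKM as deposited. So did 74.4% of all genes in eWAT and 51% in muscle. In muscle against liver, 9 of 12 partners were higher and 0 lower, against 51% and 21.4% of all genes, among them Zfand5 (2.62 ± 0.20) and Ecpas (2.25 ± 0.14), a proteasome adaptor. The immunoproteasome genes were lower in muscle than in liver in 3 of 3 (21.4% of all genes) and higher in eWAT than in muscle in 3 of 3 (63.7% of all genes).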

How the data were processed

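The authors deposited 1 table of FPKM per gene and library, made from TruSeq stranded total RNA libraries. The submitters' processing notes name HISAT2, HTSeq 0.9.1 and both mm9 and mm10, without roles. All 18 columns were mapped to samples and 0 belonged to other series. Whole fragments were recovered from FPKM with GENCODE M21 exon lengths, at a tolerance of 0.02, in 18343 of 18822 genes above 0 and in all 48 members. Tests used limma 3.58.1 (R 4.3.3) on log2(FPKM + 0.5) and kept genes whose mean reached 0.5 FPKM over the libraries fitted, with Benjamini-Hochberg adjustment over all genes tested and a threshold of 0.05. Fold changes on this scale understate those of low genes. The smallest two-sided p of an exact permutation of 3 against 3 is 0.1. CON and HSD muscle libraries with the same replicate number correlated weakly in their deviations from the group mean (r = 0.383, 0.177 and 0.184). They come from different mice, and no pairing of these mice was stated. The blocked value of Psme4 therefore stands only beside the main result. In liver r was -0.473, 0.396 and -0.213, and in eWAT -0.197, 0.0608 and 0.414. The scripts were tested on simulated data. Members and lists were chosen with earlier results of these data known. Members named were the catalytic subunits, the 3 highest and 3 lowest fold changes, those passing where 10 or fewer did, and the highest and lowest of each role. Members named because groups did not overlap, and other members given as examples, were chosen after their values were seen. Alternatives covered pseudocount, filter, scaling, replicate block, libraries used and voom.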

Additional observations from a re-analysis of the deposited data

How the results depend on the processing

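In eWAT against muscle, the 12 members passing became 27 with median-ratio scaling, 21 with HSD libraries, 7 with a log2 fold change of at least 1 as well, 32 with eWAT and muscle libraries alone (chosen after seeing the data), and 8 to 24 when 1 library was left out, with 24 without CON14L and 23 without CON16L. The share of all genes passing was 72.7% with HSD libraries, 88% with eWAT and muscle libraries alone, 82.2% without CON14L and 81.2% without CON16L. The 0 members passing with HSD became 4 in eWAT without HS3W (range 0 to 4) and 1 in muscle without HS2M (range 0 to 1). With the replicate number as a block, 1 muscle member passed, and the block changed no other count by over 1.5 times. For the difference of diet effects, the study's libraries alone gave 29 members for eWAT minus liver and 13 for muscle minus liver, and leaving out 1 library gave 0 to 2 for the former (1 without CON16L, 2 without HS5L).

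Among members that the naming rule gave for a comparison, the sign of the log2 fold change turned as follows. Over all 46 members, scaling turned the sign of 25 for eWAT against liver, 5 for muscle against liver and 20 for eWAT against muscle, and without CON14L 27 of 45 members were above 0 in liver with HSD, with Psmd7 at -0.17. For liver HSD against CON, it did for Psmd10 (-0.00084 with median-ratio scaling, -0.28 with mitochondrial genes left out, -0.33 to 0.73 without 1 library), Psme1 (-0.0676 with median-ratio scaling, -0.33 with mitochondrial genes left out, -0.37 to 0.31 without 1 library), Psmb6 (-0.00737 with mitochondrial genes left out, -0.24 to 0.82 without 1 library) and Psmb5 (-0.10 to 1.03 without 1 library). For eWAT HSD against CON, it did for Psma7 (-0.10 to 0.27 without 1 library). For CON eWAT against liver, it did for Psmb6 (-1.60 with median-ratio scaling, -0.71 with mitochondrial genes left out, -0.41 with HSD libraries, -0.55 to 0.45 without 1 library) and Psmb5 (-0.86 to 0.27 without 1 library). For CON muscle against liver, it did for Psmb6 (-0.44 with median-ratio scaling, -0.40 with mitochondrial genes left out, -0.0257 with HSD libraries, -0.40 to 0.60 without 1 library) and Psmb5 (-0.76 to 0.37 without 1 library). For CON eWAT against muscle, it did for Psmb5 (-0.23 to 0.0207 without 1 library). For diet effect, eWAT minus liver, it did for Psme4 (0.29 with mitochondrial genes left out, -0.29 to 0.13 without 1 library) and Psmb6 (-0.91 to 0.14 without 1 library). For diet effect, muscle minus liver, it did for Psmb5 (0.00894 with mitochondrial genes left out, -0.84 to 0.29 without 1 library), Psmb6 (0.13 with mitochondrial genes left out, -0.67 to 0.38 without 1 library), Psmd4 (-0.37 with the study's libraries alone, -0.13 to 0.56 without 1 library), Psmd7 (-0.35 with the study's libraries alone, -0.19 to 0.48 without 1 library) and Psmb7 (-1.44 to 0.16 without 1 library). For diet effect, eWAT minus muscle, it did for Psmd10 (-0.31 to 0.53 without 1 library).

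No other alternative moved the number of members passing in either direction by over 1.5 times. By direction, members lower in muscle than in liver went from 2 to 8 and in eWAT than in liver from 0 to 4 without CON14L, and with HSD libraries to 6 and 3, while those higher in eWAT than in liver went from 34 to 22. The 3 libraries a group, few fragments for Psmg3, for Psmg4 in muscle and for Psmb7 in some liver libraries, and the spread of the liver libraries limit what could pass. The causes of these changes were not tested.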
